A study of Mus musculus with 4 samples.

Results

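The 37 RNAs described here are the products of the mouse mitochondrial genome: 13 mRNAs, 2 rRNAs and 22 tRNAs. They are the rows of the deposited table of 52197 entries whose gene symbol begins with mt-. RNA that came down with SAFB (scaffold attachment factor B, which binds both RNA and DNA in the nuclear matrix) was sequenced from AML12, an untransformed line of mouse hepatocytes grown with 0.1 µM dexamethasone. An antibody to SAFB gave the SAFB RIP group of 2 libraries, and control IgG gave the IgG RIP group of 2 libraries. Both groups came from untransfected cells that were crosslinked with ultraviolet light, and both antibodies were applied to a sonicated nuclear lysate, not to isolated mitochondria. The input was not analysed here.

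The mitochondrial genome is a small circle transcribed from both strands into long precursors. The tRNAs lie between most of the mRNAs and rRNAs and are cut out by endonucleases, which frees the RNAs on either side. The mRNAs encode core subunits of complexes I, III and IV of the respiratory chain and of ATP synthase, and the rRNAs and tRNAs serve the ribosomes inside the organelle. The genes called heavy-strand here are those that GENCODE places on the plus strand of the reference (28 genes: 12 mRNAs, both rRNAs and 14 tRNAs), and light-strand genes are those on the minus strand (9 genes: mt-Nd6 and 8 tRNAs). Hepatocytes hold many mitochondria, and mitochondrial mRNAs are abundant in their total RNA.

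All mitochondrial genes together held 0.194% and 0.171% of the TPM in the SAFB RIP libraries, against 0.496% and 0.533% in the IgG RIP libraries. TPM, as deposited by the authors, is a length-scaled share of a library, so read depth is unknown and no counting interval can be given. The IgG share was 2.82 times the SAFB share, and the groups did not overlap. With 2 libraries against 2 the smallest two-sided exact permutation p is 0.333, so shares and ratios are given as values without a test. These values are shares of a library. In bulk precipitates, fewer organelles carried along, less RNA recovered from each and more of other RNA recovered cannot be told apart.

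Single genes were compared on log2(TPM + 1) with limma, fitted over all 16647 genes that reached 1 TPM in at least 2 of the 4 libraries, with a Benjamini-Hochberg adjusted p of 0.05 as the threshold. Each fold change is given with its standard error. Of the 37 mitochondrial genes 31 could be tested, and 11 of them were lower in the SAFB RIP, against 8.30% lower among all genes tested. In limma 0 of the 31 were higher, and at an unadjusted p of 0.05 it was still 0, where 29.8% of all genes were higher by the adjusted p. mt-Nd3 entered the test through the IgG libraries alone. The labels do not say that the libraries came from separate cultures, so the p-values measure the spread between these libraries, which may be technical.

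The fold change of all genes tested had a median of 0.46 (log2), so every library was also centred on its median. The median of the tested mitochondrial genes was -1.25 as deposited and -1.71 after centring, which called 16 lower, against 17.6% of all genes, and 0 higher. Leaving out IgG RIP replicate 2 gave 20 lower and 2 higher (mt-Tw and mt-Ta, at 1.70 and 1.49), where 2631 of 16333 genes were lower and 7781 higher over the whole table. Leaving out IgG RIP replicate 1 gave 17 lower, where 2325 of 16387 genes were lower. With a library left out its group has 1 library, which is assumed to vary like the other group, so a gene whose own libraries scatter can pass there without being better measured. In 21 of the 37 genes both SAFB libraries lay below both IgG libraries, and 20 of these 21 were among the genes tested, against 21.4% of all genes tested. In 0 of the 37 did both SAFB libraries lie above both IgG libraries, against 52.3% of all genes tested. The 8 hepatocyte markers, checked against the labelled cell type, summed to 6149 and 6389 TPM in the SAFB RIP and 7186 and 7300 TPM in the IgG RIP, with Apoa2 listed at 0 in all 4. They did not move together. Of the 7 tested, Trf was lower (-0.59 ± 0.14), Alb was higher (0.43 ± 0.09) and 5 did not pass. After centring Alb stood at -0.03, with 3 of the 7 lower and 0 higher. The 8 markers of leukocytes, endothelium and stellate cells summed to 32.5 and 22.4 TPM in the SAFB RIP and 12.8 and 7.84 TPM in the IgG RIP, nearly all of it Cd68, and Adgre1, Pdgfrb and Cdh5 were listed at 0 throughout. Their part in the mitochondrial values was not tested.

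**Figure D1:**
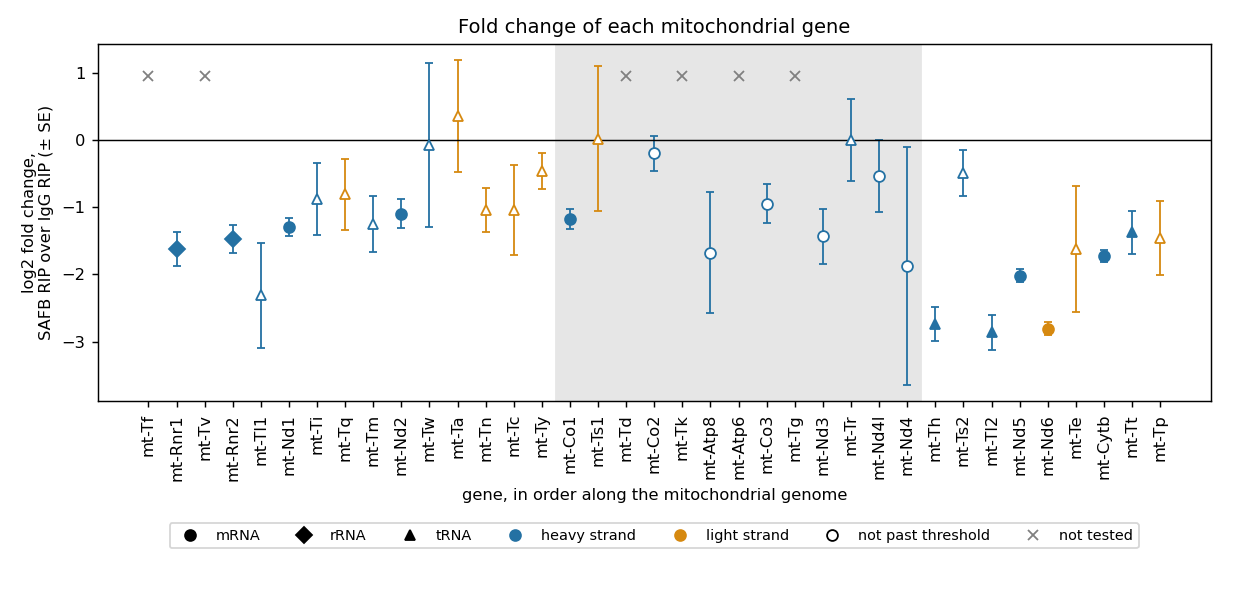
log2 fold change of each mitochondrial gene, SAFB RIP over IgG RIP, with its standard error (2 libraries per group), in order along the mitochondrial genome. Shape gives the RNA class, colour the strand, filled symbols the genes past the threshold, crosses the 6 genes not tested. The shaded genes lie wholly or partly within the stretch copied on chromosome 1. mt-Th, mt-Tl2, mt-Nd5 and mt-Nd6, which follow the shaded genes, have the lowest filled symbols, between -2.02 and -2.86.

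Complex I, the NADH dehydrogenase, takes 7 of its subunits from the mitochondrial genome. mt-Nd6, the light-strand mRNA (mm10, chromosome M, 13552 to 14070), had 64.4 and 67.2 TPM in the SAFB RIP and 476 and 457 TPM in the IgG RIP. Its log2 fold change of -2.81 ± 0.09 was the largest fall among the mRNAs (limma, adjusted p = 0.00373). mt-Nd5, the heavy-strand mRNA that meets it tail to tail (11742 to 13565), had 217 and 231 TPM in the SAFB RIP and 894 and 928 TPM in the IgG RIP. It fell by 2.02 ± 0.09 on the log2 scale (limma, adjusted p = 0.00373). In both genes the replicates lay close together and the groups far apart.

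The 3′ ends of this pair show why strand matters for their values, since the last 14 bases of each are the complement of the other. Capitals mark these shared positions, and the sequences, from the GENCODE M21 transcripts, are written 5′ to 3′ along each gene.
mt-Nd5 3′ end, plus strand, chrM:13526-13565: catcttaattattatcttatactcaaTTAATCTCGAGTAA
mt-Nd6 3′ end, minus strand, chrM:13552-13591: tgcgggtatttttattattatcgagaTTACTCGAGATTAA
The libraries were strand-specific, but the use of strand in counting is not given in the sources used here. If reads were counted without strand, heavy-strand precursor running across mt-Nd6 would be counted as mt-Nd6. The mt-Nd6 mRNA also differs from the others in base composition. It is 43.7% T and 28.1% G with 5.97% C, while mt-Nd5 is 27.1% C and 9.98% G.

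The other complex I mRNAs divide by position. mt-Nd1 (2751 to 3707), next to the rRNAs, had 109 and 99.2 TPM in the SAFB RIP and 279 and 235 TPM in the IgG RIP, and fell by 1.29 ± 0.13 (limma, adjusted p = 0.00646). mt-Nd2 (3914 to 4951) had 59.2 and 61.3 TPM in the SAFB RIP and 159 and 107 TPM in the IgG RIP, and fell by 1.10 ± 0.22 (limma, adjusted p = 0.0221). Both were lower in each SAFB library than in either IgG library. mt-Nd3, mt-Nd4l and mt-Nd4 were much less steady.

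mt-Nd3 (9459 to 9806) had 0.535 and 0 TPM in the SAFB RIP and 1.61 and 3.29 TPM in the IgG RIP, and did not pass at -1.43 ± 0.41 (limma, adjusted p = 0.0523). mt-Nd4l (9877 to 10173) had 5.45 and 13.04 TPM in the SAFB RIP and 9.47 and 17.3 TPM in the IgG RIP, and its groups overlapped. mt-Nd4 (10167 to 11544) had 44.2 and 2.91 TPM in the SAFB RIP and 11.5 and 190 TPM in the IgG RIP. The libraries of mt-Nd4 scattered widely within each group, and its fold change of -1.88 had an error of 1.77. It turned to 0.092 without IgG RIP replicate 2 and to -3.84 without IgG RIP replicate 1.

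mt-Cytb (14145 to 15288) encodes cytochrome b, the mitochondrially made subunit of complex III. It had 99.9 and 97.7 TPM in the SAFB RIP and 329 and 329 TPM in the IgG RIP. It fell by 1.73 ± 0.09 (limma, adjusted p = 0.00378). The IgG libraries were nearly equal and far above both SAFB libraries.

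Complex IV, cytochrome c oxidase, has 3 core subunits encoded here. mt-Co1 (5328 to 6872), which carries the haem and copper centre where oxygen is reduced, was the most abundant mitochondrial RNA in every library, at 1105 and 940 TPM in the SAFB RIP and 2138 and 2492 TPM in the IgG RIP. It fell by 1.18 ± 0.15 (limma, adjusted p = 0.0094). It stood 44th and 67th among all genes in the SAFB libraries and 14th and 15th in the IgG libraries. mt-Co2 (7013 to 7696), the subunit that takes electrons from cytochrome c, was listed far lower, at 15.1 and 12.6 TPM in the SAFB RIP and 14.7 and 17.4 TPM in the IgG RIP, and did not pass at -0.20 ± 0.26. mt-Co3 (8607 to 9390) had 19.8 and 18.4 TPM in the SAFB RIP and 29.5 and 48.3 TPM in the IgG RIP. Its groups did not overlap, but it missed the threshold at -0.95 ± 0.29 (limma, adjusted p = 0.0612).

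The ATP synthase subunits mt-Atp8 (7766 to 7969) and mt-Atp6 (7927 to 8607), which form part of its membrane sector, share 43 bases in different reading frames. mt-Atp8 had 0.911 and 6.36 TPM in the SAFB RIP and 19.9 and 5.86 TPM in the IgG RIP, and its groups overlapped. mt-Atp6 had 0.0927 and 0.0468 TPM in the SAFB RIP and 0.287 and 5.12 TPM in the IgG RIP, and reached 1 TPM in 1 library, so it was not tested. The shared bases, in capitals, belong to the end of mt-Atp8 and the start of mt-Atp6, so a read that falls within them has no single gene.
mt-Atp8/mt-Atp6 overlap, plus strand, chrM:7917-7979: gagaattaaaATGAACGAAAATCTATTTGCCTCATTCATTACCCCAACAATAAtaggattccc

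**Figure D2:**
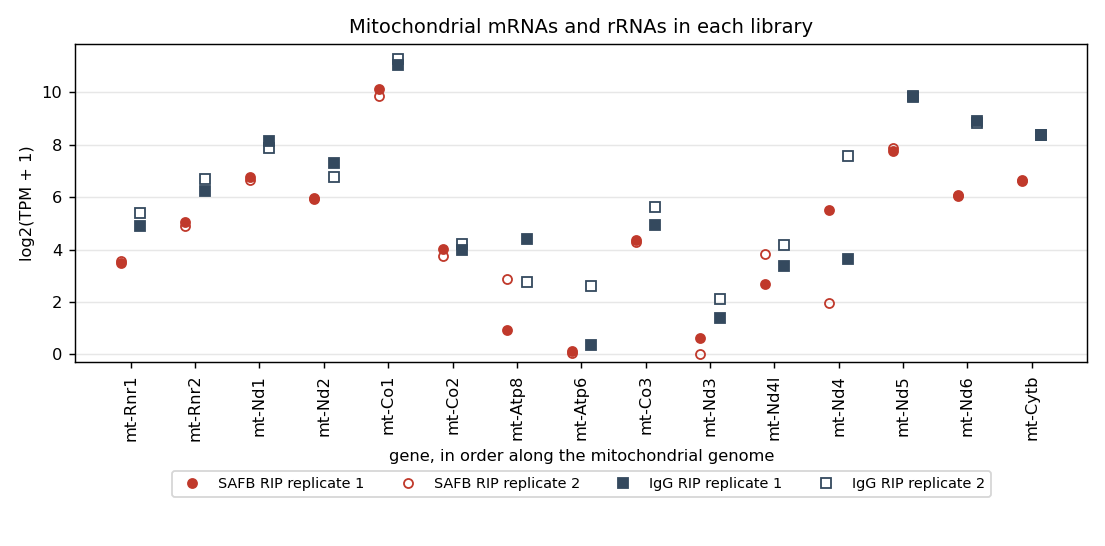
log2(TPM + 1) of the 13 mitochondrial mRNAs and 2 rRNAs in each of the 4 libraries, in order along the mitochondrial genome, with SAFB RIP left of IgG RIP. The replicates of mt-Nd5, mt-Nd6 and mt-Cytb nearly coincide and the groups stand apart, while mt-Co2 overlaps and mt-Nd4 scatters widely, from 2.91 to 190 TPM.

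The mRNAs with low or unsteady values lie together, from mt-Co2 to mt-Nd4, in a part of the mitochondrial genome that is also present in the nuclear genome. Aligned to all GENCODE M21 transcripts, the mitochondrial genes matched 18 nuclear genes at 90% identity or more over at least 60 bases, of which 17 are in the table and 7 of those are listed at 0 in all libraries. The 8 with a mean of at least 1 TPM were Cep295, a centrosomal protein gene on chromosome 9 that matched mt-Tl1 and mt-Tn, and 7 unprocessed pseudogenes on the minus strand of chromosome 1. These 7 lie in the same order as their mitochondrial counterparts, over 4654 bases of chromosome 1 (24611535 to 24616188) against 4653 bases of the mitochondrial genome (6390 to 11042). In 5 of the 7 the aligned sequence was identical, and the other two, Gm29216 and Gm28438, differed from mt-Co1 and mt-Nd3 by a single base. Cep295 had 51.7 and 52.7 TPM in the SAFB RIP and 24.4 and 27.2 TPM in the IgG RIP, and rose by 0.99 ± 0.15, a call lost without either SAFB library and after median centring, at 0.53.

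Those 2 differences are the A1066T change in mt-Co1 and the T3C change in mt-Nd3, written as mitochondrial base, position from the first base of the mitochondrial gene, and base of the copy. The differing base is in capitals.
mt-Co1, plus strand, chrM:6390-6408: ggaAttgttttatccaact
Gm29216, minus strand, chr1:24616170-24616188: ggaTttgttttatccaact
mt-Nd3, plus strand, chrM:9459-9476: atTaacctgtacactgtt
Gm28438, minus strand, chr1:24613102-24613119: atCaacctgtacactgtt
A read that does not cover such a base matches the mitochondrial gene and its copy equally well. How the authors assigned such reads is not given in the sources used here, so the values of a gene and its copy are uncertain one by one.

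The copies were not minor entries. Gm28437, identical to 783 bases of mt-Co3, had 74.9 and 72.4 TPM in the SAFB RIP and 103 and 159 TPM in the IgG RIP, above mt-Co3 itself in every library. Its groups did not overlap, but it missed the threshold at -0.79 ± 0.23 (limma, adjusted p = 0.0567). Gm10925, identical to 678 bases of mt-Atp6, had 8.001 and 14.7 TPM in the SAFB RIP and 75.0 and 53.8 TPM in the IgG RIP, and fell by 2.44 ± 0.35 (limma, adjusted p = 0.0118). Gm28661, identical to 681 bases of mt-Co2, had 41.5 and 52.2 TPM in the SAFB RIP and 24.5 and 41.7 TPM in the IgG RIP, and did not pass at 0.53 ± 0.30. In these 3 pairs the copy held most of the summed value in every library, from 62.3% for mt-Co2 in IgG RIP replicate 1 to 99.7% for mt-Atp6 in SAFB RIP replicate 2.

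Gm29216, which matches the last 483 bases of mt-Co1, fell by 0.83 ± 0.14 (limma, adjusted p = 0.0155), and did not pass without SAFB RIP replicate 1, at -0.74. It added 1.10% and 1.47% to the SAFB RIP sums and 1.05% and 0.97% to the IgG RIP sums. Gm10222, beside mt-Nd4l, had 0.643 and 12.2 TPM in the SAFB RIP and 37.6 and 38.5 TPM in the IgG RIP. Gm28439, beside the first 876 bases of mt-Nd4, had 15.99 and 13.9 TPM in the SAFB RIP and 0 and 92.2 TPM in the IgG RIP. Gm28438, beside mt-Nd3, had 5.99 and 5.78 TPM in the SAFB RIP and 5.65 and 17.9 TPM in the IgG RIP. None of Gm10222 (-3.07 ± 1.03), Gm28439 (0.72 ± 2.20) and Gm28438 (-0.70 ± 0.58) passed in the fit of the values as deposited. Gm28439 changed sign with the IgG library left out, at -2.55 without replicate 1 and 3.99 without replicate 2.

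Adding each copy to its mitochondrial gene, weighted by length, was an alternative chosen after the values had been seen. mt-Atp6 with its copy then held 8.06 and 14.7 TPM in the SAFB RIP and 74.9 and 58.7 TPM in the IgG RIP, and fell by 2.50 ± 0.33 (limma, adjusted p = 0.01). mt-Co2 with its copy held 56.4 and 64.6 TPM in the SAFB RIP and 39.1 and 58.9 TPM in the IgG RIP, at 0.32 ± 0.24, which did not pass. mt-Co3 with its copy stood at -0.83 ± 0.24 and again missed the threshold (limma, adjusted p = 0.052). mt-Nd4l (-1.93 ± 0.66), mt-Nd3 (-0.92 ± 0.55) and mt-Nd4 (-1.07 ± 1.61) did not pass either. With the copies added 12 mitochondrial genes were lower and 0 higher, where 1382 of 16641 genes were lower and 4965 higher. The mt-Atp6 sum was nearly all copy, from 91.3% to 99.7% over the libraries, so its fall is a fall of sequence that both genes share.

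**Figure D3:**
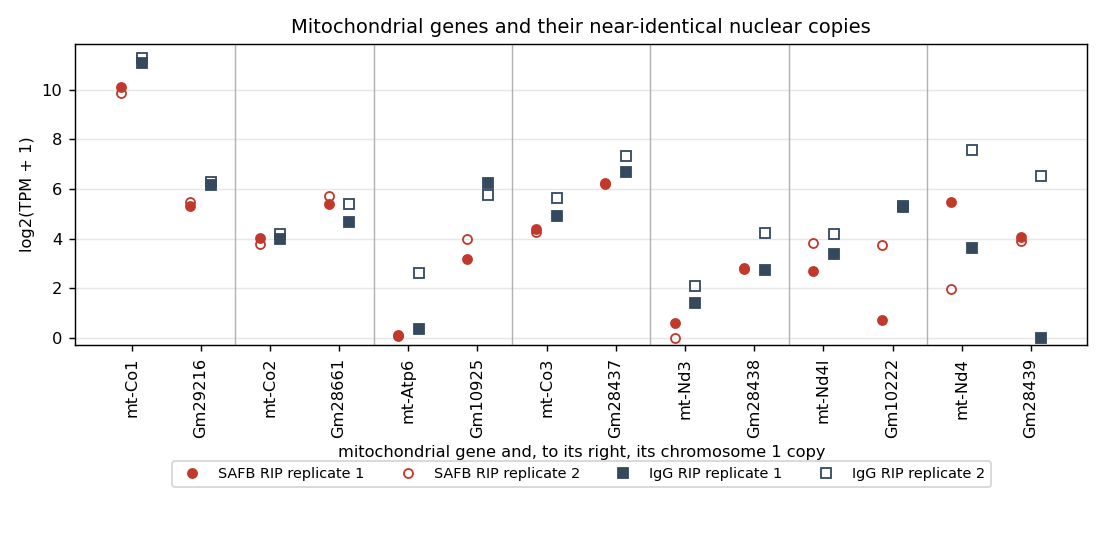
log2(TPM + 1) of 7 mitochondrial genes and, to the right of each, its chromosome 1 copy, in each library, with SAFB RIP left of IgG RIP. The copies of mt-Co2, mt-Atp6, mt-Co3 and mt-Nd3 lie above their mitochondrial gene in all 4 libraries, and the copy of mt-Co1 lies far below it.

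The 5 mRNAs wholly outside the copied stretch (mt-Nd1, mt-Nd2, mt-Nd5, mt-Nd6 and mt-Cytb) all passed as lower. They summed to 549 and 557 TPM in the SAFB RIP and 2138 and 2055 TPM in the IgG RIP. Of the 6 mRNAs wholly inside it, 5 were tested and 0 passed in limma, against 8.30% lower among all genes tested. At an unadjusted p of 0.05, 2 were lower. After median centring, which called 17.6% of all genes lower, 2 of those tested, mt-Co3 and mt-Nd3, passed as lower. mt-Nd3 reached 1 TPM in the IgG libraries alone, so it could hardly pass other than as lower. mt-Co3 was tested through both groups, so for that gene the split depends on scaling. Those 6 summed to 41.9 and 50.5 TPM in the SAFB RIP and 75.4 and 97.2 TPM in the IgG RIP. The lower count inside the stretch goes with lower listed values and with copies that share the sequence, and which of these bears on it was not tested.

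The 2 rRNAs form the core of the mitochondrial ribosome. mt-Rnr1, the 12S rRNA (70 to 1024), had 10.1 and 10.9 TPM in the SAFB RIP and 29.1 and 40.5 TPM in the IgG RIP, and fell by 1.62 ± 0.26 (limma, adjusted p = 0.0139). mt-Rnr2, the 16S rRNA (1094 to 2675), had 32.3 and 28.9 TPM in the SAFB RIP and 73.5 and 102 TPM in the IgG RIP, and fell by 1.47 ± 0.20 (limma, adjusted p = 0.0109). For both, each SAFB library lay below each IgG library.

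The rRNA levels are what depletion left. The libraries were made with a kit that removes cytoplasmic and mitochondrial rRNA, so these values say nothing of rRNA abundance in the cells. Within a library, mt-Rnr2 was 3.21 and 2.66 times mt-Rnr1 in the SAFB RIP and 2.53 and 2.51 times in the IgG RIP. The rRNAs took 2.19% and 2.33% of the mitochondrial TPM in the SAFB RIP and 2.07% and 2.67% in the IgG RIP, ranges that overlap.

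The tRNAs, 59 to 75 bases long, bring amino acids to the mitochondrial ribosome. TPM does not separate cut tRNA from uncut precursor. Of the 22, 17 were tested, 3 were lower (mt-Tl2, mt-Th and mt-Tt) and 0 higher in limma. Among all genes tested 8.30% were lower and 29.8% higher. At an unadjusted p of 0.05, 7 were lower and 0 higher, and the shares over all genes at that p were not computed. All 22 together summed to 153 and 119 TPM in the SAFB RIP and 494 and 353 TPM in the IgG RIP. The 5 not tested (mt-Tf, mt-Tv, mt-Td, mt-Tk and mt-Tg) never passed 3.74 TPM, and mt-Tf was listed at 0 in every library.

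The tRNAs that fell furthest, mt-Tl2 and mt-Th, lie in the cluster of 3 tRNAs between mt-Nd4 and mt-Nd5. mt-Tl2, the leucine tRNA for CUN codons (11671 to 11741), had 7.85 and 10.1 TPM in the SAFB RIP and 84.5 and 59.4 TPM in the IgG RIP. It fell by 2.86 ± 0.26 (limma, adjusted p = 0.00582). mt-Th, the histidine tRNA (11546 to 11612), had 6.04 and 6.24 TPM in the SAFB RIP and 53.5 and 40.3 TPM in the IgG RIP. It fell by 2.73 ± 0.25 (limma, adjusted p = 0.00582). In both tRNAs the lower IgG library was several times the higher SAFB library, while mt-Ts2, the serine tRNA between them, had 0.603 and 1.29 TPM in the SAFB RIP and 2.12 and 1.33 TPM in the IgG RIP and did not pass at -0.49 ± 0.35.

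mt-Tt, the threonine tRNA after mt-Cytb (15289 to 15355), had 10.0 and 15.8 TPM in the SAFB RIP and 29.1 and 40.4 TPM in the IgG RIP, and fell by 1.37 ± 0.32 (limma, adjusted p = 0.0318). It no longer passed without SAFB RIP replicate 1 (limma, adjusted p = 0.1) or with no filter on low values (limma, adjusted p = 0.051). The tRNA that fell furthest, mt-Th from the same cluster and the light-strand tyrosine tRNA mt-Ty, which did not pass, are shown as DNA. Capitals mark the anticodon, a triplet set beforehand for each tRNA. It was located after a T in a 7-base loop closed by a 5-base stem, with G-T pairs and a mismatch allowed.
mt-Tl2, plus strand, chrM:11671-11741: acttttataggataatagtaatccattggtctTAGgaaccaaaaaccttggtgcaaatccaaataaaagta
mt-Th, plus strand, chrM:11546-11612: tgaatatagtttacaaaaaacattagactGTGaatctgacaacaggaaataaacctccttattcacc
mt-Ty, minus strand, chrM:5260-5326: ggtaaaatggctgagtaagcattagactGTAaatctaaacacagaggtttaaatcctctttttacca

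The remaining heavy-strand tRNAs scattered more. mt-Tl1, the leucine tRNA between mt-Rnr2 and mt-Nd1, had 19.2 and 4.37 TPM in the SAFB RIP and 78.1 and 32.7 TPM in the IgG RIP, at -2.31 ± 0.78. mt-Tm, the methionine tRNA, had 16.5 and 13.9 TPM in the SAFB RIP and 55.5 and 25.1 TPM in the IgG RIP, at -1.25 ± 0.42. In both the groups did not overlap, and neither passed. The SAFB libraries of mt-Tl1 differed several-fold from each other, and its fold change was -3.26 without the first and -1.35 without the second.

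mt-Ti, the isoleucine tRNA, had 9.84 and 11.6 TPM in the SAFB RIP and 34.3 and 12.1 TPM in the IgG RIP. mt-Tw, the tryptophan tRNA, had 10.9 and 9.25 TPM in the SAFB RIP and 2.40 and 39.2 TPM in the IgG RIP, so its direction depends on which IgG library is read. mt-Tr, the arginine tRNA, had 1.27 and 0 TPM in the SAFB RIP and 0 and 1.28 TPM in the IgG RIP. The 5 tRNAs within the copied stretch (mt-Ts1, mt-Td, mt-Tk, mt-Tg and mt-Tr) summed to 4.39 and 0.915 TPM in the SAFB RIP and 0 and 10.5 TPM in the IgG RIP, against 149 and 118 TPM in the SAFB RIP and 494 and 342 TPM in the IgG RIP for the 17 outside it.

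Of the 8 light-strand tRNAs, all tested, 0 passed as lower in limma, against 8.30% of all genes tested. A count of 0 of 8 is not far from that share. At an unadjusted p of 0.05, 2 were lower, and the share over all genes at that p was not computed. In 3 both SAFB libraries lay below both IgG libraries, against 21.4% of all genes tested. mt-Tp, the proline tRNA, had 25.7 and 8.55 TPM in the SAFB RIP and 50.6 and 36.3 TPM in the IgG RIP, at -1.46 ± 0.55. mt-Tn, the asparagine tRNA, had 1.76 and 1.83 TPM in the SAFB RIP and 4.09 and 5.47 TPM in the IgG RIP, at -1.04 ± 0.33. mt-Ty had 11.1 and 10.6 TPM in the SAFB RIP and 17.0 and 13.6 TPM in the IgG RIP, at -0.46 ± 0.27. In these 3 each SAFB library was below each IgG library, by margins that did not pass.

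In the other five light-strand tRNAs the groups overlapped. mt-Tq, the glutamine tRNA, had 20.3 and 15.0 TPM in the SAFB RIP and 52.2 and 18.6 TPM in the IgG RIP. mt-Tc, the cysteine tRNA, had 3.51 and 7.24 TPM in the SAFB RIP and 20.6 and 6.29 TPM in the IgG RIP. mt-Te, the glutamate tRNA next to mt-Nd6, had 4.27 and 0 TPM in the SAFB RIP and 9.61 and 3.70 TPM in the IgG RIP. In each of these 3 one IgG library alone stood well above the SAFB libraries.

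The 2 least abundant were less clear still. mt-Ta, the alanine tRNA, had 1.27 and 2.47 TPM in the SAFB RIP and 0 and 3.83 TPM in the IgG RIP. mt-Ts1, the serine tRNA after mt-Co1, had 3.08 and 0.915 TPM in the SAFB RIP and 0 and 6.61 TPM in the IgG RIP. Both were listed at 0 in IgG RIP replicate 1 and highest in IgG RIP replicate 2.

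**Figure D4:**
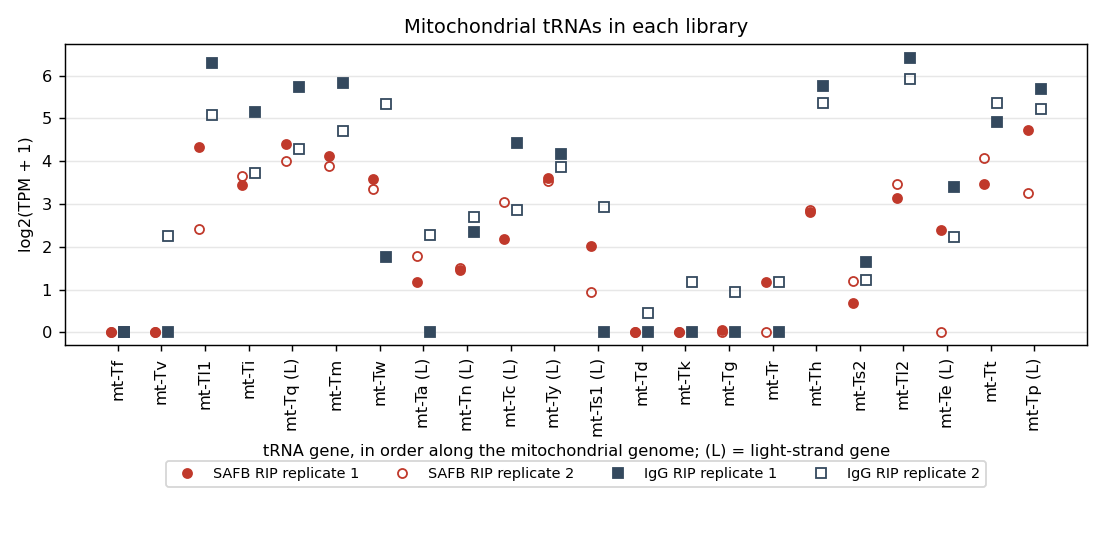
log2(TPM + 1) of the 22 mitochondrial tRNAs in each library, in order along the mitochondrial genome, with SAFB RIP left of IgG RIP and light-strand genes marked (L). mt-Th and mt-Tl2 show the widest gap between groups, and mt-Tw, mt-Ta and mt-Ts1 have IgG libraries on both sides of the SAFB libraries.

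By class, summed mRNA TPM was 1740 and 1550 in the SAFB RIP and 4363 and 4834 in the IgG RIP, an IgG to SAFB ratio of 2.80, against 2.98 for the rRNAs and 3.11 for the tRNAs. The mRNAs held 89.9% and 90.7% of mitochondrial TPM in the SAFB RIP and 88.0% and 90.7% in the IgG RIP. The tRNAs held 7.92% and 6.97% in the SAFB RIP and 9.96% and 6.61% in the IgG RIP. None of these class shares separated the groups.

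By strand, the summed shares of mRNA and tRNA went different ways. The light-strand mRNA mt-Nd6 made up 3.70% and 4.34% of mitochondrial mRNA TPM in the SAFB RIP and 10.9% and 9.45% in the IgG RIP. The 8 light-strand tRNAs made up 46.3% and 39.1% of tRNA TPM in the SAFB RIP and 31.2% and 26.8% in the IgG RIP. So the share of mt-Nd6 was smaller, and that of the light-strand tRNAs larger, in the SAFB RIP than in the IgG RIP. In both shares the groups did not overlap. Light-strand tRNAs summed to 71.0 and 46.5 TPM in the SAFB RIP and 154 and 94.5 TPM in the IgG RIP, and heavy-strand tRNAs to 82.3 and 72.5 TPM in the SAFB RIP and 340 and 258 TPM in the IgG RIP. The heavy-strand sum includes mt-Tl2, mt-Th and mt-Tl1, the tRNAs with the largest falls. They held 84.5, 53.5 and 78.1 TPM in IgG RIP replicate 1 and 59.4, 40.3 and 32.7 TPM in replicate 2. In SAFB RIP replicate 1 they held 7.85, 6.04 and 19.2 TPM, and in replicate 2 10.1, 6.24 and 4.37 TPM. The tRNA shares therefore lean on these genes and do not show a pattern of the strand as a whole. Shares without them were not computed. mt-Nd6 is the only light-strand mRNA. A common strand direction over mRNA and tRNA was not seen in these shares.

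Ratios between RNAs of the same library do not depend on scaling between libraries. mt-Nd6 was 0.297 and 0.291 times mt-Nd5 in the SAFB RIP and 0.533 and 0.492 times in the IgG RIP. mt-Nd6 was 0.645 and 0.689 times mt-Cytb in the SAFB RIP and 1.45 and 1.39 times in the IgG RIP, so the order of these 2 RNAs was opposite in the 2 groups. Among heavy-strand mRNAs, mt-Nd5 was 0.197 and 0.246 times mt-Co1 in the SAFB RIP and 0.418 and 0.372 times in the IgG RIP. mt-Nd5 was 1.999 and 2.33 times mt-Nd1 in the SAFB RIP and 3.20 and 3.95 times in the IgG RIP. mt-Cytb was 0.920 and 0.985 times mt-Nd1 in the SAFB RIP and 1.18 and 1.40 times in the IgG RIP. mt-Nd5 and mt-Cytb were thus lower relative to mt-Nd1 in the SAFB RIP. mt-Rnr2 over mt-Nd1 overlapped, at 0.298 and 0.292 in the SAFB RIP and 0.263 and 0.434 in the IgG RIP. mt-Tt, after mt-Cytb, fell by 1.37, against 1.29 for mt-Nd1, and a trend along the precursor was not tested. mt-Co1 was 63.5% and 60.6% of mRNA TPM in the SAFB RIP and 49.0% and 51.5% in the IgG RIP.

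**Figure D5:**
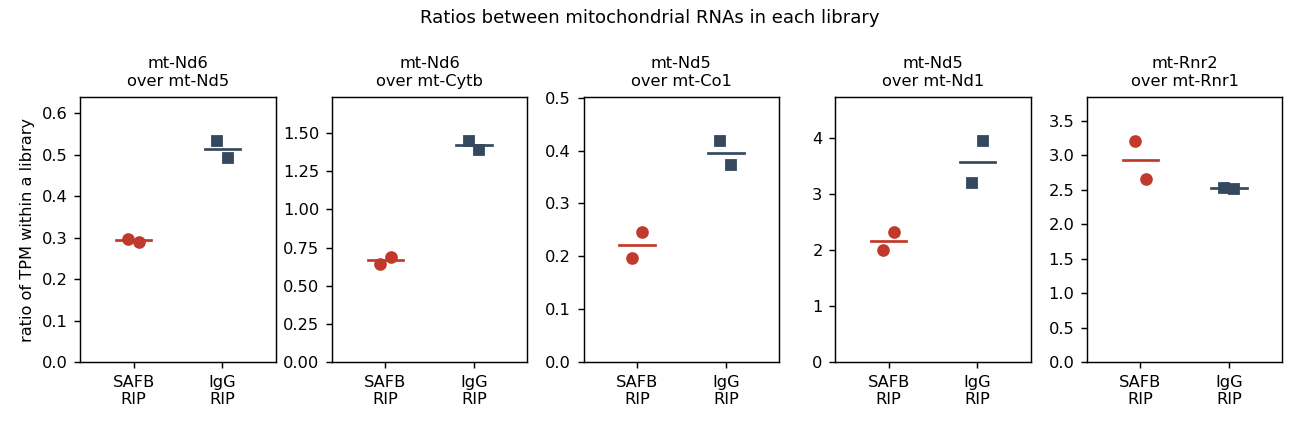
Ratio of TPM between pairs of mitochondrial RNAs within each library (points) with the mean of each group (lines, n = 2), SAFB RIP left of IgG RIP; each axis starts at 0. The first 4 ratios separate the groups without overlap, with mt-Nd6 over mt-Nd5 near 0.294 in the SAFB RIP and 0.513 in the IgG RIP, and the ratio of the rRNAs is 2.93 in the SAFB RIP and 2.52 in the IgG RIP with a wide spread in the SAFB RIP.

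Mitochondrial genes are poor in G and C. Their median GC content was 35.6% (17.1% to 44.9%), against a median of 49.0% and a 5th percentile of 38.7% over all genes tested. Removing the trend of fold change with GC content across all genes left 13 mitochondrial genes lower and 0 higher, where 616 of all 16647 genes were lower and 5516 higher. The median of the tested mRNAs was -1.36 as deposited and -1.45 with that trend removed.

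The nuclear genes whose products work with these RNAs were counted by complex and by role. Of 73 nuclear-encoded subunits of complexes I, III and IV and ATP synthase, 23 were lower, 12 higher and 38 did not pass, with a median of -0.23, against 8.30% lower and 29.8% higher among all genes tested. That share of lower genes, 31.5%, is near the 35.5% of the mitochondrial genes. Their median of -0.23 and 12 higher stand beside a median of -1.25 and 0 higher for the 31 mitochondrial genes. The difference between the lists was not tested. With the GC trend removed 14 of the 73 were lower and 16 higher with a median of 0.10, and 13 of the 31 mitochondrial genes were lower. That fit called 616 genes lower and 5516 higher over the whole table. The sign of the median of the 73 thus depends on that trend. After median centring 36 were lower and 2 higher, against 17.6% lower and 16.4% higher among all genes tested.

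By complex, 8 of 36 complex I genes were lower and 6 higher. Of 9 complex III genes 4 were lower and 1 higher, among them Uqcrc1 (-0.76 ± 0.09) and Uqcr11 (-1.29 ± 0.15). Of 12 complex IV genes 4 were lower and 2 higher, among them Cox8a (-1.51 ± 0.14) and Cox4i1 (-0.80 ± 0.11), which stood at 0.06 with the GC trend removed. Of 16 ATP synthase genes 7 were lower and 3 higher, among them Atp5b, for the catalytic beta subunit (-0.74 ± 0.10), and Atp5a1, for the alpha subunit (-0.86 ± 0.13). Uqcr11 and Atp5a1 did not pass with the GC trend removed, at -0.36 and -0.31.

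Of 17 genes for mitochondrial transcription and replication 7 were higher and 1 lower, with a median of 0.71, or 0.25 after median centring, which left 3 higher and 2 lower. Twnk, the mitochondrial replicative helicase gene, had 402 and 397 TPM in the SAFB RIP and 77.2 and 70.4 TPM in the IgG RIP, and rose by 2.42 ± 0.10 (limma, adjusted p = 0.00373). Mterf4, which encodes a factor in mitochondrial ribosome assembly, rose by 1.90 ± 0.12. Tfam, for the main DNA packaging protein of mitochondria, had 21.6 and 21.2 TPM in the SAFB RIP and 9.13 and 11.4 TPM in the IgG RIP, and rose by 0.998 ± 0.251. Its call was lost under 8 of 16 alternatives, all 4 scalings among them, and it stood at 0.54 after median centring. Polg, for the mitochondrial DNA polymerase, fell by 0.63 ± 0.17, and its call was lost under 7 of 16 alternatives, either smaller pseudocount among them, standing at -0.28 with the GC trend removed. Polrmt, for the mitochondrial RNA polymerase, did not pass at -0.76 ± 0.25.

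Of 26 genes for mitochondrial RNA processing, stability and decay 9 were higher and 3 lower, with a median of 0.53, or 0.07 after median centring, which left 7 higher and 4 lower. Lrpprc, which encodes an RNA-binding protein that keeps mitochondrial mRNAs stable, had 96.7 and 93.2 TPM in the SAFB RIP and 62.7 and 60.5 TPM in the IgG RIP. It rose by 0.62 ± 0.11, and its call was lost under 7 of 16 alternatives, all 4 scalings among them, standing at 0.16 after median centring. Slirp, the gene of its partner, did not pass at 0.67 ± 0.39. In these lists 7 of 17 and 9 of 26 genes were higher, against 29.8% of all genes tested. After median centring it was 3 of 17 and 7 of 26, against 16.4%. The differences from all genes were not tested.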

How the data were processed

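RIP-seq libraries of AML12 nuclear lysates were compared, 2 with an antibody to SAFB and 2 with control IgG, grouped by the sample titles. The authors deposited 1 table of TPM values. Per the submitters' processing notes, HISAT2, HTSeq, DESeq2, StringTie and mm10 were used, with no versions or roles. The sources used here do not give the tool that made the TPM, its annotation or its strand setting, nor any read depth.

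Entries that shared an identifier (6 identifiers) were summed, leaving 52189. All 37 mitochondrial genes matched GENCODE M21 by identifier, and positions and sequences come from it. Genes that reached 1 TPM in 2 or more of the 4 libraries were tested on log2(TPM + 1), which understates changes of low genes, with limma 3.58.1 (trended variances) in R 4.3.3. Nuclear copies were found with BLAST 2.17.0. The fit was tested on simulated data.

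The members and lists were chosen with earlier results of these data known. All mRNAs, rRNAs and tested tRNAs are given by library. Of each nuclear list the 4 genes with the highest mean TPM were taken, with Polrmt, Tfam, Lrpprc and Slirp, 27 in all, and 13 of the 15 that did not pass are not named. Of those that passed, 1 is not reported here. Copies with a mean of at least 1 TPM are given. Alternatives covered pseudocount, filter, scaling, GC trend, short entries, variance model, single libraries, replicate numbers and nuclear copies.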

Additional observations from a re-analysis of the deposited data

How the results depend on the processing

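Across 17 alternatives to the analysis as described, or the 15 or 16 that could be computed for a gene, 10 of the 11 mitochondrial genes called lower kept that call, and mt-Tt lost it under 2. With all 4 libraries the count of 11 lower was 16 with median centring and 17 with quantile normalization. It was 17 with rescaling over protein-coding and mitochondrial genes, and 9 to 14 under the other alternatives. Among all genes tested, lower calls went from 1382 of 16647 to 2935 with median centring and 2986 with quantile normalization. With protein-coding rescaling they were 2342 of 11980, and under the other alternatives 616 to 2033. The rise in the mitochondrial count under these scalings thus came with a rise over all genes, and was not tested against it. Leaving out single libraries gave 13 to 20 lower and 0 to 2 higher. Entries under 200 bases could not be tested for that alternative, which leaves no tRNA median. The median of the mRNAs stayed between -1.82 and -1.12. That of the tRNAs, -1.04, moved to -1.50 with median centring, -1.65 with quantile normalization and -1.34 with protein-coding rescaling, and ranged from -1.59 to -0.75 with single libraries left out. The difference in the mt-Nd6 share of mRNA TPM, -6.16 percentage points, ranged from -6.90 to -5.43.

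The libraries are numbered 1 and 2 in both groups, but deviations of same-numbered libraries correlated at -0.02 across genes and the labels do not tie the numbers to shared lysates. With the replicate number as a block 14 mitochondrial genes were lower and 0 higher, where 1264 of all 16647 genes were lower and 4797 higher.

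The sign turned for genes that had not passed. mt-Tw stood at 0.0353 with a pseudocount of 0.1 and between -1.86 (IgG RIP replicate 1 left out) and 1.70 (IgG RIP replicate 2 left out) with single libraries left out. mt-Ta stood at -0.11 with median centring, -0.65 with quantile normalization and between -0.78 and 1.49 with those same libraries left out. mt-Ts1 stood at -0.44 with median centring, -0.86 with quantile normalization, -0.0712 when rescaled without the RNAs AY036118, Gm26917 and Gm42418, -0.0662 with protein-coding rescaling, -0.15 with the GC trend removed and between -1.44 and 0.56 with single libraries left out. mt-Tr stood at 0.37 with the GC trend removed and between -0.60 and 0.59 with single libraries left out, mt-Nd4l likewise between -1.10 and 0.0218, mt-Nd4 between -3.84 and 0.092, and mt-Co2 at 0.32 with its nuclear copy added. Polrmt stood at 0.18 and Cox4i1, which had passed, at 0.061 with the GC trend removed. With single libraries left out Gm28438 ranged from -1.45 to 0.05 and Gm28439 from -2.55 to 3.99. The causes were not tested. Read depth is unknown, so the counting error of low values could not be given.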
